A study of Mus musculus with 7 samples.

Results

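Single-list Fos regions are stretches of the mouse genome at which a peak of Fos binding was called in exactly 1 of 3 kainic acid libraries and in no saline library. They were found by merging the peaks of 6 chromatin immunoprecipitation (ChIP-seq) lists wherever 2 peaks shared at least 1 bp, and by keeping the merged regions of chromosomes 1 to 19 with that pattern of calls. The rule gave 38907 regions of the 68873 merged regions of all lists. Kainic acid replicate 2 contributed 34600 of them, replicate 3 contributed 3559 and replicate 1 contributed 748. Each of these regions is a single peak. A further 14512 regions on the same chromosomes were in exactly 2 kainic acid lists and 11598 were in all 3, again with no saline peak.

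The tissue was the hippocampus of wild-type C57BL/6J mice, 2 months old. Treated animals received kainic acid at 10 mg/kg by intraperitoneal injection, given again 30 min later, and those that reached seizures of level 4 were killed 1 h after the first dose. Control animals received saline (PBS). Chromatin fixed in tissue homogenate was precipitated with a monoclonal antibody against Fos, in 3 libraries per treatment, and 1 input library had no peak list used here. The number of animals behind a library is not in the labels, so the spread between libraries may be technical. Replicates 1, 2 and 3 had 15009, 63197 and 29650 peaks after kainic acid and 7, 3277 and 2 after saline. The lowest −log10 q was 1.38, 1.35 and 1.35 in the kainic acid lists, so absence from a list means that no peak was called, and says nothing more about binding. Whole hippocampus mixes neurons, glia and vessels. Fewer cells with Fos at a site and less Fos per cell cannot be told apart, and peak lists hold no expression against which the labelled tissue could be checked.

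Fos is an immediate-early protein that neurons make within minutes to hours of strong firing. It pairs with Jun proteins to form AP-1, which binds the sequence TGANTCA (N is any base), mostly at enhancers far from start sites. Kainic acid opens a class of glutamate receptors and sets off such firing across the hippocampus. A related site, TGACGTCA, is bound by CREB and ATF proteins and is common at promoters of activity-dependent genes.

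The sequences below are RefSeq promoter windows (assembly GRCm38.p6, the release of the build mm10 that the submitters' processing notes name). Each runs from 250 bases before a start site to 50 after it, 5′ to 3′ on the strand of the gene. They are shown because they lie under the single-list promoter peaks of highest −log10 q in each list, and because 1 of them carries the AP-1 motif inside the peak. Capitals mark a match to TGANTCA. The first 3 are the top 3 of replicate 2, Asphd2 is the first of replicate 3 and 9230102K24Rik the first of replicate 1.
Marcksl1: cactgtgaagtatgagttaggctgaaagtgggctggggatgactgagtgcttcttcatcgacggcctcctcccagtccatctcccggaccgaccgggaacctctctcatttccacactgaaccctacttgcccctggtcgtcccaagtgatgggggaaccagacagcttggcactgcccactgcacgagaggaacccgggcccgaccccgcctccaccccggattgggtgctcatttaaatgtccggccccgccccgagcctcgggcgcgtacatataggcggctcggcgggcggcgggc
Hnrnpa1: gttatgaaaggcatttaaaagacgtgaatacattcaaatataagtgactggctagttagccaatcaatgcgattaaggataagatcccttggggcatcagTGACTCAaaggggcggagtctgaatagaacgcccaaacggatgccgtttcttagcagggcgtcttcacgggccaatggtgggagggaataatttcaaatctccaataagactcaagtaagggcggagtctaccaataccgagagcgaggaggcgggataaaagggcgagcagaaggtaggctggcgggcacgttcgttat
4933406C10Rik: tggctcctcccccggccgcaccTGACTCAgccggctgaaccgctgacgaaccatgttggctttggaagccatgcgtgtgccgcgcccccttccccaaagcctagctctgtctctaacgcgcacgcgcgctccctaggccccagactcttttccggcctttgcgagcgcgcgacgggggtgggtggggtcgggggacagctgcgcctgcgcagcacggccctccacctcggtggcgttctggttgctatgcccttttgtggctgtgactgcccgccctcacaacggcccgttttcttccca
Asphd2: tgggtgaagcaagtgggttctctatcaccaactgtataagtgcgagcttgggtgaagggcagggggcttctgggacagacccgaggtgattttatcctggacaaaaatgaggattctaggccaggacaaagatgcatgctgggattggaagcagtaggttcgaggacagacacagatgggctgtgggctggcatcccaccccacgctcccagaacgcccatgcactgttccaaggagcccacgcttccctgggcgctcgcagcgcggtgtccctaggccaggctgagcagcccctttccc
9230102K24Rik: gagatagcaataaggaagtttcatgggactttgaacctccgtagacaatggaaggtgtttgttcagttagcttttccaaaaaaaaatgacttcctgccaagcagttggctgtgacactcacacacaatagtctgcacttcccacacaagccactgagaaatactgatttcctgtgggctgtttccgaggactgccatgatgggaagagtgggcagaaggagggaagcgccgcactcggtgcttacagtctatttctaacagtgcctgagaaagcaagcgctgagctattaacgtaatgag

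The Marcksl1 window is chr4:129513331-129513630 on the plus strand. Marcksl1 encodes a membrane protein that binds actin. Its peak, chr4:129513073-129513671, had a fold of 10.5 over local background, a −log10 q of 35.9 and 53 reads over the summit, and the nearest kainic acid peak of another list lay 31657 bp away. The window holds 22 CG dinucleotides and no match to TGANTCA or TGACGTCA. Hnrnpa1, which encodes an RNA-binding protein of splicing, has its window at chr15:103240147-103240446 on the plus strand, and the peak also meets the window of Cbx5. The peak at chr15:103239920-103240418 had a fold of 8.25, a −log10 q of 35.6 and 64 reads, and the TGACTCA in the window lies inside the peak, 57 bp from its summit. The window of 4933406C10Rik, chr12:32953740-32954039 on the minus strand, lies beside the start site of Sypl. There the peak (chr12:32953428-32953816, fold 10.2, −log10 q 35.2, 53 reads) does not reach the TGACTCA, which is 374 bp from the summit. Promoter peaks of the other lists were weaker. Asphd2 has its window at chr5:112395321-112395620 on the minus strand, and its peak (chr5:112395500-112395909) had a fold of 4.90, a −log10 q of 8.58 and 24 reads. 9230102K24Rik has its window at chr10:110600400-110600699 on the plus strand, and its peak (chr10:110600258-110600488) had a fold of 2.88, a −log10 q of 3.02 and 22 reads. The Asphd2 and 9230102K24Rik windows hold neither motif.

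Single-list regions were chosen by their peak calls, which rest on the fold, the q and the reads of each peak, so the following values describe them and test nothing. The fold and q are the authors' values for each peak and are not scaled between libraries. Single-list regions made up 5.20% of the regions of replicate 1, 56.3% of those of replicate 2 and 12.4% of those of replicate 3. The longest list thus supplied most of them. When each list was trimmed to the length of the shortest by its strongest peaks, the numbers were 3648, 3303 and 2942 for replicates 1, 2 and 3. The order of the libraries by number of single-list regions is therefore not kept at equal list length.

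Single-list peaks were low within their own list. The median fold was 3.84, 3.93 and 3.44 in replicates 1, 2 and 3, against 4.58, 7.59 and 5.05 for the peaks of the same libraries in regions of all 3 lists. The median −log10 q was 4.13, 4.75 and 3.98, against 7.13, 18.9 and 11.0. Reads over the summit, solved from the fold and p of each peak, had medians of 17, 17 and 19, against 23, 35 and 31. The median background was 3.5, 3.32 and 4.66 reads, close to the 4.02, 3.32 and 4.87 reads under regions of all 3 lists. The reads differed between the classes more than the background did. Median widths were 260, 297 and 323 bp, against 399, 716 and 668 bp. Peaks of regions in exactly 2 lists lay between, with median folds of 3.91, 5.02 and 3.75 in replicates 1, 2 and 3. Their median −log10 q was 4.37, 8.28 and 5.36, and their median reads were 18, 22 and 22. In replicate 1 single-list peaks were thus only slightly below those of exactly 2 lists. The weakest single-list peaks had 12, 9 and 13 reads, which are also the lowest counts anywhere in those lists.

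**Figure D1:**
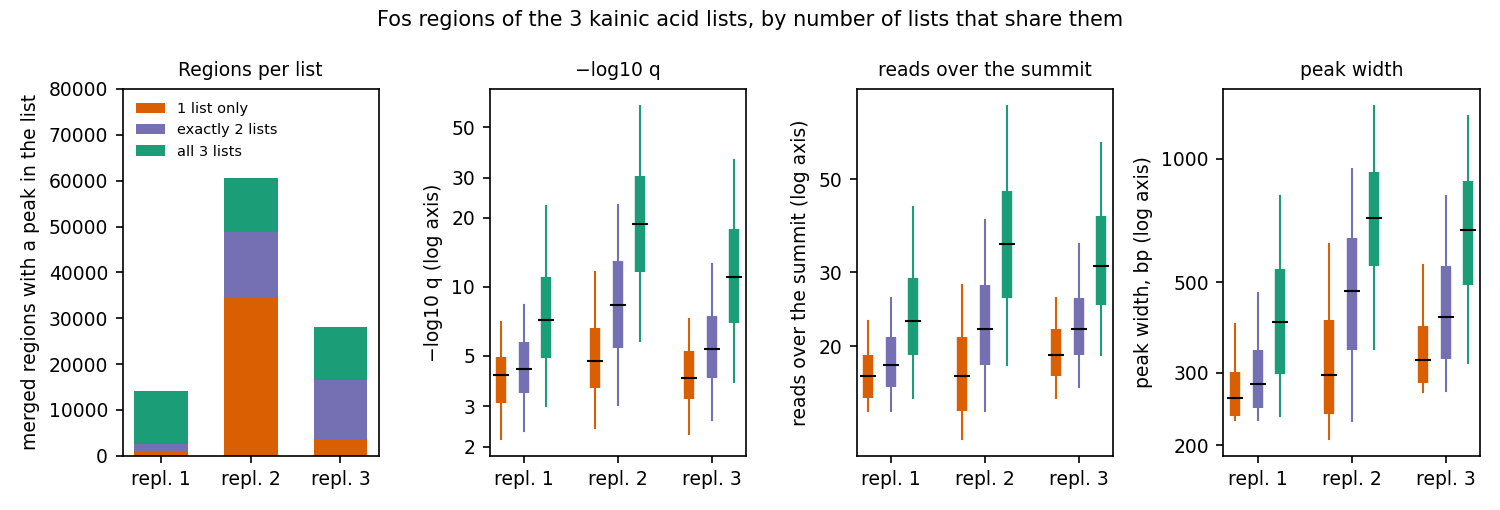
Stacked bars give merged regions (chromosomes 1 to 19, no saline peak) per kainic acid list, split by how many kainic acid lists share them. The other panels show −log10 q, reads over the summit and peak width in bp on log axes, with black ticks for medians, thick bars for the middle 50% and thin lines for the 5th to 95th percentiles; single-list peaks have median widths of 260, 297 and 323 bp, below the other classes of their list.

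A minority of single-list regions was strong. A −log10 q of at least 10 was reached by 2 of 748 in replicate 1, by 2831 of 34600 (8.18%) in replicate 2 and by 29 of 3559 (0.815%) in replicate 3. Among the 1000 regions of highest −log10 q, single-list regions numbered 0, 1 and 0 in replicates 1, 2 and 3, and among the top 5000 they numbered 18, 61 and 1. The single one in a top 1000 lay in Akt1s1, which encodes a subunit of the growth-controlling kinase complex mTORC1. Its peak in replicate 2 (chr7:44849203-44849775) had a fold of 8.95, a −log10 q of 52.8 and 91 reads over a background of 9.28, with the summit 178 bp from an end of the gene. The next in replicate 2 lay 10.2 kb from Irf2bpl (fold 11.9, −log10 q 45.2, 62 reads) and 190 kb from Grin2a, an NMDA receptor subunit gene (fold 14.6, −log10 q 45.1, 53 reads). Prune2 held one inside the gene (fold 13.8, −log10 q 41.3), and one lay 6.30 kb from the olfactory receptor gene Olfr325 (fold 10.4, −log10 q 40.4). The Akt1s1 and Irf2bpl peaks had a peak of another kainic acid list at 1.02 and 1.15 kb, while for the Grin2a, Prune2 and Olfr325 peaks the nearest was at 16.2, 15.6 and 30.2 kb.

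The strongest single-list regions of the other libraries were lower. In replicate 1 the first lay in Cdh11, a cadherin gene, with a fold of 6.56, a −log10 q of 13.0 and 28 reads (chr8:102695701-102695974). It was followed by regions in Ptprk (−log10 q 10.3), Map2, a dendritic microtubule protein gene (9.86), and Hivep2 (9.65), and by one 36.2 kb from Serinc1 (9.46). In replicate 3, regions in Egfem1 (−log10 q 13.5), Slc16a1, a lactate transporter gene (13.0), and Magi2, a synaptic scaffold gene (12.7), and one 694 kb from Mctp2 (13.5) were among the strongest. Of these 9 regions, those in or near Cdh11, Map2, Hivep2, Egfem1 and Slc16a1 had a peak of another list within 1 kb.

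The edge of the rule was a matter of single bases. In Rgs5, which encodes a regulator of G protein signalling, a peak of replicate 3 (chr1:169674915-169675236) ended where a peak of replicate 2 (chr1:169675237-169675511) began at the next base, so both counted as single-list regions. Their fold was 2.88 and 4.68. In Ncoa2, a coactivator gene, peaks of replicate 1 (chr1:13259690-13259937, fold 4.32) and replicate 2 (chr1:13259343-13259690, fold 5.13) shared 1 bp and counted as 1 region in 2 lists. Such near misses on the other side were few. Of 13831 regions made of exactly 2 peaks in 2 lists, 163 (1.18%) shared 50 bp or less, and the median overlap was 311 bp. Among single-list regions, 23.5% of those of replicate 1, 8.36% of those of replicate 2 and 24.7% of those of replicate 3 lay within 500 bp of a peak of another kainic acid list. The other lists together hold 92847, 44659 and 78206 peaks, so these shares are not on an equal footing.

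Position relative to genes was not part of the rule. A summit was counted at a gene end when it lay within 1 kb of the start or the stop of a protein-coding gene, as the RefSeq table gives its span. This held for 11.6% of the single-list regions of replicate 2 (95% Clopper-Pearson interval 11.2 to 11.9), 5.59% of those of replicate 3 (4.86 to 6.40) and 3.61% of those of replicate 1 (2.39 to 5.21). The intervals cover counting error only. Regions of exactly 2 lists gave 7.99%, 8.24% and 4.67% by the summits of the same libraries, and regions of all 3 lists gave 6.16%, 6.06% and 6.09%. The difference from regions of all 3 lists was +5.41 percentage points in replicate 2, −0.47 in replicate 3 and −2.48 in replicate 1. Over the libraries the mean difference was 0.821 ± 4.10 percentage points (SD, n = 3), and a two-sided exact sign-flip permutation test gave p = 1, where 3 libraries allow no p under 0.25. The regions of all 3 lists are the same places in each library, so the 3 differences share that term. The libraries thus did not share a direction.

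The gene-end share of replicate 2 was the highest of the 3 at equal list length too. It was then 13.5%, against 4.44% in replicate 1 and 6.05% in replicate 3. Within replicate 2 the share was 10.3% in the quintile of lowest −log10 q and 13.1% in the quintile of highest. Across all alternatives run its difference from regions shared by every kainic acid list kept stayed between 3.95 and 7.23 points, while that of replicate 1 stayed between −4.42 and −1.45. With a library left out, the shared regions are those of both remaining lists. In replicate 3 the share was 6.60% in the lowest quintile and 4.64% in the highest, with overlapping intervals (4.89 to 8.68 and 3.22 to 6.46). Without the list of replicate 2, single-list regions of replicate 3 are defined anew and number 16962, against 3559. Their difference from regions of both remaining lists was +1.75 points.

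Most single-list regions lay inside genes: 68.7%, 58.0% and 66.5% in replicates 1, 2 and 3, against 58.6%, 58.6% and 58.7% for regions of all 3 lists, with the gene ends counted apart. Outside genes but within 100 kb of one lay 12.4%, 22.0% and 17.4%, against 23.7%, 23.6% and 23.6%. This share was lower in 3 of 3 libraries, with a mean difference of −6.33 percentage points (SD 4.82, n = 3; the same exact permutation test gave p = 0.25, the smallest possible). The difference was −11.2, −1.58 and −6.20 points in replicates 1, 2 and 3. This comparison was not among the planned tests, and the same permutation test gave p = 0.5 for the share inside genes. More than 100 kb from any gene lay 15.2%, 8.34% and 10.5%, against 11.6% in each library. Over single-list summits inside genes, the gene around the summit had a median length of 229 kb in replicate 1, 121 kb in replicate 2 and 162 kb in replicate 3, against 157 kb for summits of regions of all 3 lists. A long gene counts there once for each of its summits.

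**Figure D2:**
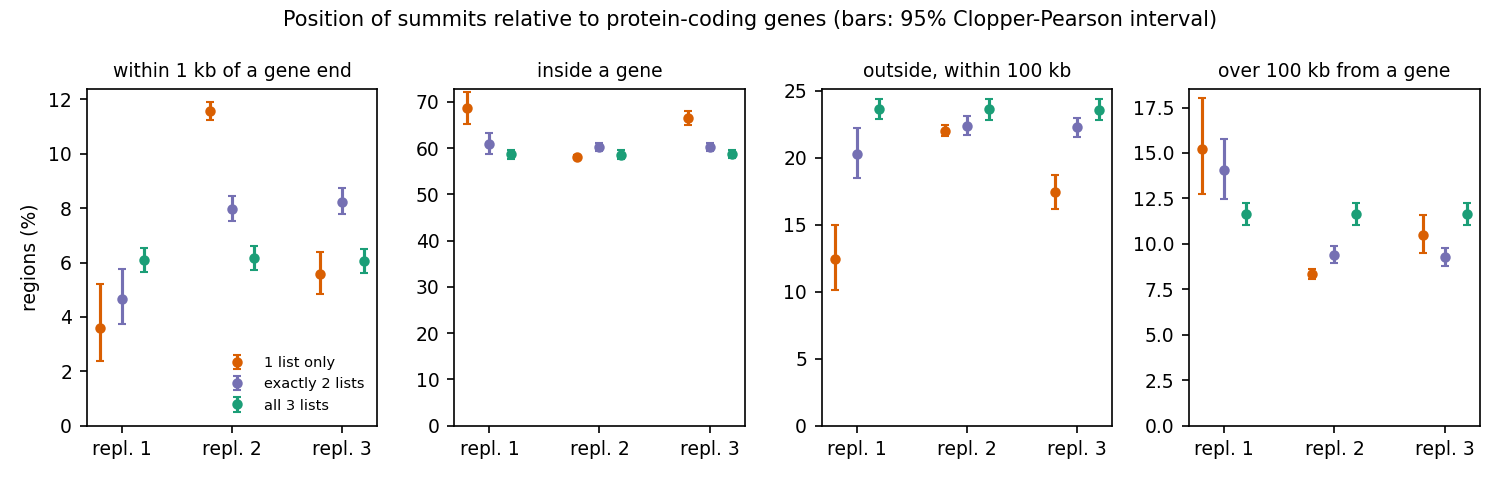
Points give the percentage of regions by position of the summit relative to protein-coding genes, for each kainic acid library and for regions in 1, 2 or all 3 lists, with 95% Clopper-Pearson intervals. At gene ends, single-list regions of replicate 2 sit at 11.6%, above both other classes of that library, while those of replicate 1 sit at 3.61%.

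Gene ends include starts and stops. With RefSeq start sites alone, on the chromosomes for which windows were given, 11.8% of the single-list summits of replicate 2 lay within 1 kb of a start, against 4.92% in replicate 3 and 3.17% in replicate 1. Regions of all 3 lists gave 6.39%, 6.31% and 6.36%. Within 250 bp of a start the single-list shares were 4.10%, 0.815% and 0.275% for replicates 2, 3 and 1, against 1.80%, 1.66% and 1.61%. Replicate 2 was thus above, and the other libraries below, their regions of all 3 lists at the start itself. Of the 515 regions left out because a saline peak met a peak of 1 kainic acid list, 494 belonged to kainic acid replicate 2, and 66.0% of those were at a gene end. Single-list regions within 1 kb of a peak of saline replicate 2 made up 2.33% in kainic acid replicate 2, 1.26% in replicate 3 and 0.936% in replicate 1. The part of such sites in the gene-end share was not tested.

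**Figure D3:**
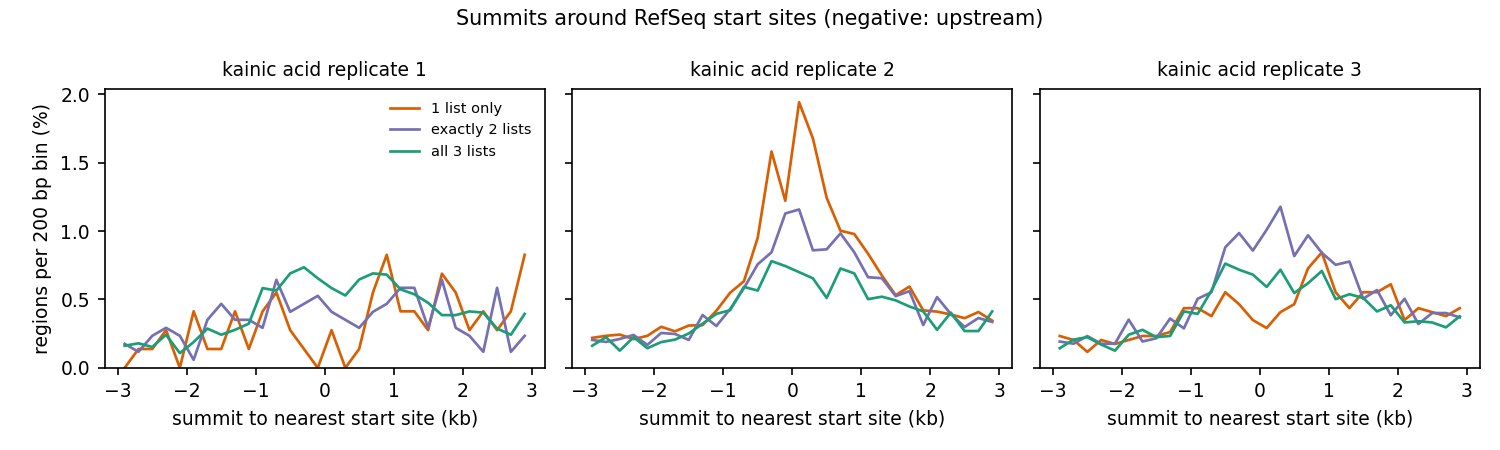
Lines give the percentage of regions per 200 bp bin by signed distance in kb from the summit to the nearest RefSeq start site, with upstream negative, for each kainic acid library and class. Single-list regions of replicate 2 rise highest around the start, where 4.10% of them lie within 250 bp, and those of replicates 1 and 3 dip there.

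The AP-1 motif could be read where a peak met a RefSeq promoter window, and its presence is a description and not a binding site. Single-list peaks overlapped 1835 windows in replicate 2 (1683 genes), 42 in replicate 3 and 3 in replicate 1. TGANTCA, which matches itself on the other strand, stood in 11.3% of the windows of replicate 2 (interval 9.87 to 12.8), in 16.7% of those of replicate 3 (6.97 to 31.4) and in 0 of 3 in replicate 1. All 31365 windows gave 7.85%. Windows under regions of all 3 lists gave 27.0%, 32.8% and 41.6% for replicates 2, 3 and 1. Those under regions of exactly 2 lists gave 23.5% in replicate 2 and 30.4% in replicate 3.

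Since wider peaks meet more of a window, the motif was also counted around summits. Of 447 single-list summits of replicate 2 with at least 50 bp of window on each side, 39 (8.72%, interval 6.28 to 11.7) had TGANTCA within 50 bp. Over all stretches of that length in the windows, 2.76% had it. Summits of replicate 2 gave 26.9% in regions of exactly 2 lists (interval 20.2 to 34.4) and 48.2% in regions of all 3 (37.3 to 59.3). In replicate 3, 2 of 12 single-list summits had the motif, against 31.9% in regions of exactly 2 lists and 40.5% in regions of all 3. Replicate 1 had no single-list summit so placed. Per length of promoter sequence under the peaks, replicate 2 had 6.72 motifs per 10 kb in single-list regions, 12.5 in regions of exactly 2 lists and 14.3 in regions of all 3, against 2.78 over all windows. In replicate 2 the motif was thus more frequent at single-list promoters than over all windows and less frequent than at promoters of regions in more lists.

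The share was higher in shorter, stronger lists. Among single-list windows of replicate 2 the percentage with TGANTCA was 13.4% with all lists kept to a −log10 q of at least 5, 19.6% at 10 or more and 20.6% with lists of equal length. Trimmed lists define single-list regions anew, so a region may have a weaker peak in another full list. At 10 or more they gave 10339 regions in replicate 2, while 2831 single-list regions of the full lists reach 10. These shares thus do not describe the stronger members of the full lists. The longer motif TGACGTCA, which cannot share letters with a TGANTCA match, stood in 4.03% of the single-list windows of replicate 2 (3.18 to 5.04), against 1.83% of all windows and 3.94% under regions of all 3 lists. The single-list windows of replicate 2 had a median of 19 CG dinucleotides, against 7 in all windows, 13 under regions of all 3 lists and 29 under the peaks of saline replicate 2. In the saline windows TGANTCA stood in 3.90%. Motifs away from promoters were not read, since no genome was used.

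**Figure D4:**
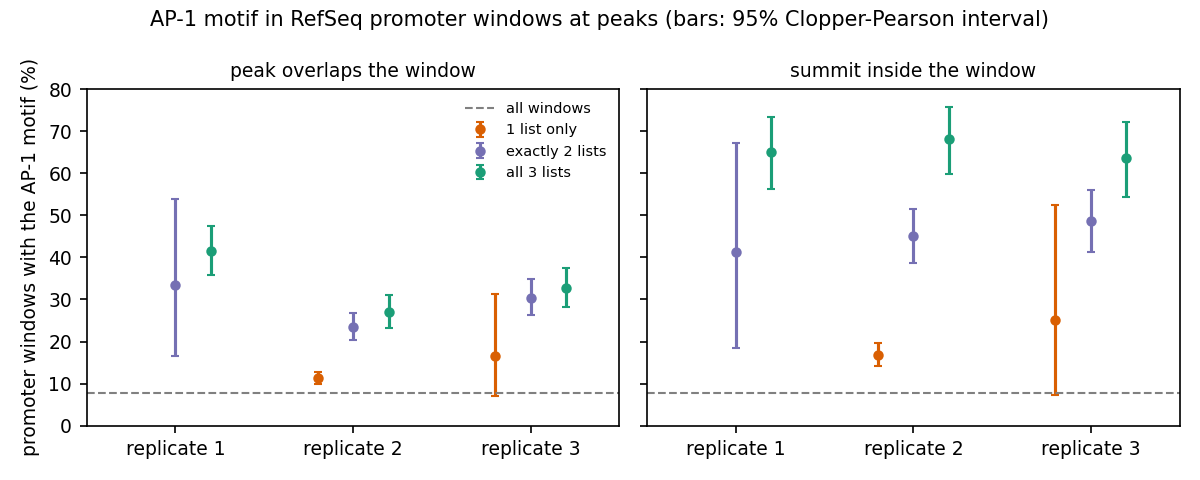
Points give the percentage of RefSeq promoter windows with TGANTCA, by library and class, with 95% Clopper-Pearson intervals, for windows overlapped by a peak (left) and windows that hold a summit (right); the dashed line marks the 7.85% of all windows, and sets under 10 windows are not drawn. Single-list windows of replicate 2 lie at 11.3% and 16.8%, below the regions of 2 or 3 lists.

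Distance to the strongest class was the last feature, and the rule touches it only at its shortest. A peak that overlaps a region by 1 bp or more joins that region, so peak width bears on the shortest gaps. The median gap from a single-list peak to the nearest region in all 3 kainic acid lists (11853 regions, with or without a saline peak) was 36.4 kb in replicate 1, 34.2 kb in replicate 2 and 26.4 kb in replicate 3. Peaks of regions in exactly 2 lists gave 36.5, 31.0 and 30.6 kb. The ratios were 0.998, 1.10 and 0.863, with a geometric mean of 0.983, and the two-sided exact sign-flip permutation test on log10 ratios gave p = 0.75 (n = 3). At short range the classes differed more. Within 1 kb of a region of all 3 lists lay 6.42%, 5.28% and 9.33% of single-list regions, against 3.38%, 4.53% and 4.54% of regions in exactly 2 lists. With peaks within 500 bp joined, which removes such neighbours, the geometric mean of the median ratios was 1.14.

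**Figure D5:**
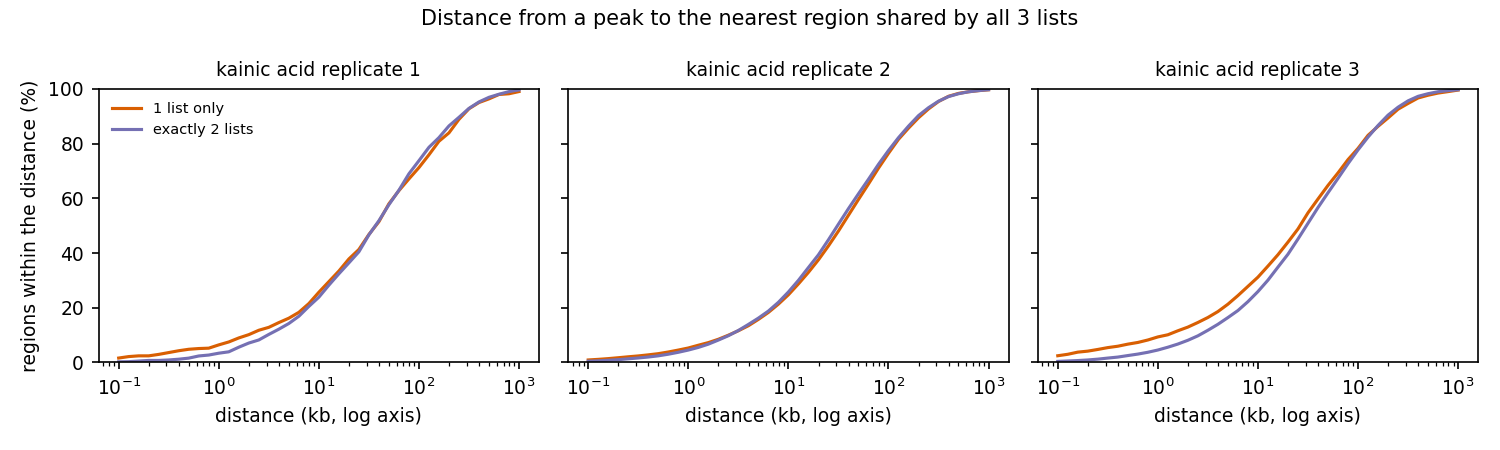
Curves give the cumulative percentage of peaks by distance in kb (log axis) to the nearest region in all 3 lists, for single-list regions and regions of exactly 2 lists in each kainic acid library. The curves run close together, with medians of 26.4 to 36.4 kb for single-list regions; in replicate 3 the single-list curve is higher at short range.

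Genes were then listed by single-list summits within 10 kb of the gene. Over 20665 protein-coding genes, 2.51% had one from replicate 1, 52.4% from replicate 2 and 10.0% from replicate 3, and 24.7% had a region of all 3 lists by the same measure. These shares grow with gene length. For replicate 2 they were 32.5% of genes up to 10 kb and 87.5% of genes over 100 kb, and for replicate 3 they were 2.59% and 37.2%. The following counts are to be read against them.

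Genes of AP-1 itself had single-list regions in 11 of 12 cases from replicate 2, in 5 from replicate 3 and in 0 from replicate 1, and 7 of the 12 had a region of all 3 lists. Their median length is 9.39 kb. Fos had 3 single-list regions, all from replicate 2, and no region of all 3 lists with its summit within 10 kb, although one began 598 bp from the outermost of the 3, whose own summit lay 8271 bp from the gene. The strongest (chr12:85471628-85471966) lay 2051 bp outside the gene, with a fold of 5.64, a −log10 q of 10.8 and 25 reads. Fosl2, a Fos relative, had 12 from replicate 2 and 1 from replicate 3, the strongest with a fold of 7.83, a −log10 q of 16.4 and 28 reads, beside 2 regions of all 3 lists. Jun, the partner of Fos, had 1 from replicate 2 (fold 3.56) and 1 from replicate 3 (fold 3.48) and none of all 3 lists. Fosb had 4 from replicate 2 and 1 from replicate 3, Jund had 1 from each of these, and Junb had 2 from replicate 2. Batf3 was the 1 AP-1 gene reached from replicate 3 alone.

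Activity-regulated genes, which neurons switch on after firing, had single-list regions in 29 of 30 cases from replicate 2, 12 from replicate 3 and 3 from replicate 1. Regions of all 3 lists were near 21 of the 30. Ier2 was the 1 gene with no single-list region. Nr4a1, a nuclear receptor gene, had 13 from replicate 2 and 1 from replicate 3 and no region of all 3 lists, and its strongest had a fold of 5.64 and a −log10 q of 10.8. Egr2 and Egr3, zinc finger factors, each had 5 from replicate 2, Egr3 had 1 more from replicate 3, and neither had a region of all 3 lists. Dusp1, a phosphatase of MAP kinases, had 3 from replicate 2 and 1 from replicate 3 and no region of all 3 lists with its summit within 10 kb. One such region lay 8080 bp from the single-list region of replicate 3, whose own summit lay 1396 bp from the gene. The strongest single-list region of Dusp1 (chr17:26508671-26509111, fold 4.44, −log10 q 17.0) had 55 reads over a background of 11.6, 474 bp outside the gene. Bdnf, a neurotrophin, had 1, 4 and 5 from replicates 1, 2 and 3 beside 2 regions of all 3 lists. Homer1, a synaptic scaffold, had 4, 11 and 2 beside 8. Btg2, Ptgs2, Dusp6 and Plk2 were the other activity-regulated genes with single-list regions and none of all 3 lists.

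Receptor genes are long, with a median of 378 kb for the glutamate receptors, of which 17 of 18 were in the gene table. Single-list regions of replicates 1, 2 and 3 were near 8, 15 and 9 of the 17, and regions of all 3 lists near 14. Grik4, a kainate receptor subunit gene, had 23 from replicate 2 and 2 from replicate 3, the strongest with a fold of 7.02 and a −log10 q of 13.5. Gria1, an AMPA receptor subunit gene, had 1, 31 and 8. Of 15 genes of the GABA system, 2, 13 and 7 had a single-list region. Gabbr2, a metabotropic GABA receptor subunit gene, had 33 from replicate 2 and 3 from replicate 3. The genes with the most single-list regions were long as well. Dlg2, a postsynaptic scaffold gene of 1973 kb, had 4, 64 and 29 beside 54 regions of all 3 lists. Celf2 and Dlgap2 had 67 each from replicate 2, and Zbtb20 and Rbfox1 had 15 and 14 from replicate 3.

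Genes that mark other cells were counted the same way, and no test compared the lists. Among 10 astrocyte genes, single-list regions of replicates 1, 2 and 3 were near 0, 6 and 3, with Sox9 (−log10 q 10.8) and Slc1a2, a glutamate transporter gene (10.5), holding the strongest. Among 9 oligodendrocyte genes in the table they were near 0, 4 and 3, led by Mbp, a myelin protein gene, with 15 from replicate 2. Among 10 microglia genes they were near 0, 6 and 0, and among 10 endothelial genes near 1, 6 and 0, with Itgam (−log10 q 12.6) and Flt1 (15.1) the strongest. Ribosomal and respiratory chain genes, which every cell uses, had them in 2, 12 and 1 of 19 cases, and 4 of the 19 had a region of all 3 lists. Liver genes, included as genes foreign to this tissue, had them in 0, 5 and 0 of 20 cases. Their median length is 10.6 kb. The 25.0% for replicate 2 was below the 52.4% of all genes, the 32.5% of genes up to 10 kb and the 51.4% of genes of 10 to 30 kb. The contrast depended on the reach. Over the 3 lists together, liver genes were at 25.0% within 10 kb and 70.0% within 50 kb, against 54.1% and 75.4% of all genes. Other lists moved with the reach too. With only summits inside the gene counted, AP-1 genes fell from 12 of 12 to 6, and astrocyte genes from 7 of 10 to 4. Activity-regulated genes fell from 29 of 30 to 24, and all genes from 54.1% to 37.8%. For replicate 2 the glial and endothelial lists lay at 44.4% to 60.0%, the ribosomal and respiratory chain genes at 63.2%, the AP-1 genes at 91.7% and the activity-regulated genes at 96.7%. The ribosomal and respiratory chain genes have a median length of 5.81 kb, so their share too was above the 32.5% of genes up to 10 kb. Endothelial genes have a median of 53.7 kb, and their 60.0% was below the 66.8% of genes of 30 to 100 kb.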

How the data were processed

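Fos ChIP-seq peaks of 3 saline and 3 kainic acid libraries were used as the authors deposited them, 1 list per library, and replicate numbers come from the labels. Per the submitters' processing notes, the tools were Trim Galore 0.6.4, Bowtie2 2.3.4.3, MACS2 and deepTools 3.5.0 on the build mm10. Per the file contents, reads were trimmed and kept at a mapping quality of 30. The control and the cutoff are not given in the sources used here. Each deposited peak has a fold (a linear ratio to local background), a −log10 p, a −log10 q and a score, none scaled between libraries.

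Regions were merged by an overlap of 1 bp. The members and gene lists were chosen with earlier results of these data known. Reads over the summit and the background were recovered by taking the fold as (reads + 1)/(background + 1) and p as a Poisson tail, for 111133 of 111142 peaks, and for every single-list region. The reads and the background are the only depth the lists give. The lowest background under single-list peaks was 3.17, 2.71 and 4.03 reads in kainic acid replicates 1, 2 and 3. In a region with several peaks of a list, the peak of highest −log10 q stood for it. Shares at gene ends and distances were compared over 3 libraries with exact sign-flip permutation tests (scipy 1.17.1, two-sided). Other positions relative to genes were compared the same way outside the plan. Shares have 95% Clopper-Pearson intervals.

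Genes and promoter windows came from RefSeq tables of GRCm38.p6, and the windows cover 25721 genes, with chromosome 18 not analysed for windows. Named were, per list, the 5 regions of highest −log10 q, the 3 promoters under the strongest peaks and the 3 genes with most regions. Also named were AP-1 and activity-regulated genes, up to 2 genes of each other list, and the regions nearest the limit of the rule. Some genes that this rule names are not reported here. The merging, solving and testing steps were tested on simulated data. The alternatives were stricter q, joining of close peaks, equal list lengths, summit distance, ignoring saline, other gene sets and reaches, and leaving out libraries. Motifs around summits and start sites were added after seeing the data.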

Additional observations from a re-analysis of the deposited data

How the results depend on the processing

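The numbers of single-list regions depended on the threshold and the list lengths. For kainic acid replicates 1, 2 and 3 they were 386, 22361 and 2197 at a −log10 q of at least 5, and 91, 10339 and 742 at 10 or more. With equal numbers of peaks they were 3648, 3303 and 2942. With summits more than 200 bp apart in place of no overlap, they were 1903 in replicate 1 and 7077 in replicate 3. Leaving out another kainic acid library gave 1038 to 2395 in replicate 1, 36218 to 48220 in replicate 2 and 3819 to 16962 in replicate 3. The mean gene-end difference turned to −0.00677 percentage points with all annotated genes, and leaving out a library gave 0.00766 to 1.09. In replicate 3 alone the difference was 1.75 without replicate 2 and −1.81 without replicate 1. With a library left out, single-list regions are defined anew and compared with regions of both remaining lists. The mean distance ratio turned to 1.02 at a −log10 q of at least 5, 1.02 at 10 or more, 1.14 with peaks within 500 bp joined and 1.04 with equal numbers. The distance ratio needs 3 lists, so no library could be left out there. In promoter windows of replicate 2 the share with TGACTCA or TGAGTCA alone was 8.61%, against 5.26% of all windows and 23.9% under regions of all 3 lists. The share with TGANTCA was 16.8% with the summit inside the window. With single-list regions defined anew, it was 13.4% and 19.6% at a −log10 q of at least 5 and 10, and 20.6% with equal numbers. It was 11.5% to 14.4% with another library left out. The cause of these moves was not tested. The planned motif counts at all summits, and in a narrower window there, were not run. No paired analysis was possible because single-list regions are defined within kainic acid lists and have no value in the saline libraries. The weakest peaks of the kainic acid lists rest on 9 to 13 reads over the summit, and the effect of depth on the counts was not tested.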
